A study of Mus musculus with 10 samples.

Results

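The genes described here encode the glycine cleavage system and the enzymes and transporter that supply it with glycine and serine: Gldc, Amt, Gcsh, Shmt1, Shmt2, Slc6a9, Phgdh, Psat1 and Psph. They were measured in germinal vesicle oocytes of the mouse, full-grown cells held in prophase of the first meiotic division. The set was assembled around Gldc, whose signal was far higher in oocytes depleted of CTCF than in wild type, so Gldc was chosen by its values in the comparison reported here. Its values are therefore given as a description with no test, and for the other members the calls made in the fit across all probe sets are counted only to describe them. Members were all probe sets whose single gene symbol in the platform annotation was one of the 9 names. This gave 19 probe sets of 8 genes, out of 34945 single-symbol probe sets of 18193 genes; Amt had no listed probe set, and its level was not analysed here.

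There were 5 wild-type arrays and 5 arrays of CTCF-depleted oocytes; CTCF is the zinc finger protein of insulators and of chromosome loop anchors. The labels named no strain or age, nor the means of depletion, the number of oocytes per array or whether the arrays came from separate animals, so limma's p-values cover array-to-array spread within a group, some or all of which may be technical. Signals were MAS5 values in arbitrary units, and the number of arrays limits their precision. The highest of 27 Bacillus control probe sets on each array, 4.75 to 10.9 units, served as its background level. By array, 49.4% to 62.9% of all probe sets lay above it. Ctcf itself read 699.7 to 877 on the 5 wild-type arrays and 7.07 to 61.1 on the 5 depleted arrays at its dimmer probe set, the highest residual signal being that of depleted replicate 5. All 13 oocyte markers, among them Zp3 and Gdf9, were above background on all 10 arrays. The ratio of 3' end to 5' end control signal for Gapdh ran from 7.73 to 9.75 in wild type (median 8.9). In depleted oocytes it ran from 6.64 to 8.51, and its median of 7.57 lay below every wild-type array. The same ratio for Actb ran from 5.97 to 7.81 (median 7.05) in wild type and from 5.55 to 8.12 (median 6.2) in depleted oocytes. The bearing of this on the fold changes was not tested. Wild-type replicate 2 had the highest summed signal of granulosa and cumulus markers, 1378 over 12 markers against 732 to 858 on the other wild-type arrays. Inha alone gave 536 of that sum, and this array was not the highest for every marker. Without this array the log2 fold change of Gldc was 3.42.

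The glycine cleavage system is a mitochondrial complex that breaks glycine into carbon dioxide, ammonia and a methylene group carried by folate. Gldc, the P protein, decarboxylates glycine and passes the remainder to the lipoyl arm of Gcsh, the H protein; Amt, the T protein, releases ammonia and loads the folate; and Dld, the L protein, reoxidises the lipoyl arm. Shmt1 in the cytosol and Shmt2 in mitochondria interconvert serine and glycine, and Phgdh, Psat1 and Psph make serine from a glycolytic intermediate. Early mouse embryos take up glycine through Slc6a9 (GLYT1) and use it to regulate cell volume. Glycine uptake was not measured here.

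Gldc signal, measured on a single probe set (1416049_at), was low in every wild-type sample and more than 6-fold above the highest of them in every depleted sample. The wild-type signals were 10.2, 9.02, 14.2, 17.9 and 26.1 in replicates 1 to 5. In the depleted samples they were 168.8, 235.9, 217.6, 187.6 and 190.3. The groups did not overlap: the lowest depleted array, replicate 1, stood 6.46 times above the highest wild-type array, replicate 5. The means were 15.5 ± 6.89 (SD, n = 5) and 200.05 ± 26.6 (SD, n = 5), and the log2 fold change on the log2(signal + 2.47) scale was 3.56 ± 0.20 (SE), or 11.8-fold. The labels do not say how many oocytes each array held. If their RNA was pooled, more RNA per oocyte and more oocytes with the transcript cannot be told apart.

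The wild-type level of Gldc lay close to background, which bears on the size of the ratio. All 5 wild-type arrays were above their background level, but replicate 1 only at 10.23 against 10.19 units, and the other 4 at 1.47 to 3.14 times it. The depleted arrays stood 17.8 to 40 times above theirs. With an offset of 16 in place of 2.47 the log2 fold change was 2.80. Depleted replicate 5, which kept the most Ctcf signal, had 190.3 units of Gldc, the middle value of its group. Among the 27022 probe sets tested, this log2 fold change was the third highest towards depleted oocytes, a position that follows from how the gene was chosen.

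**Figure D1:**
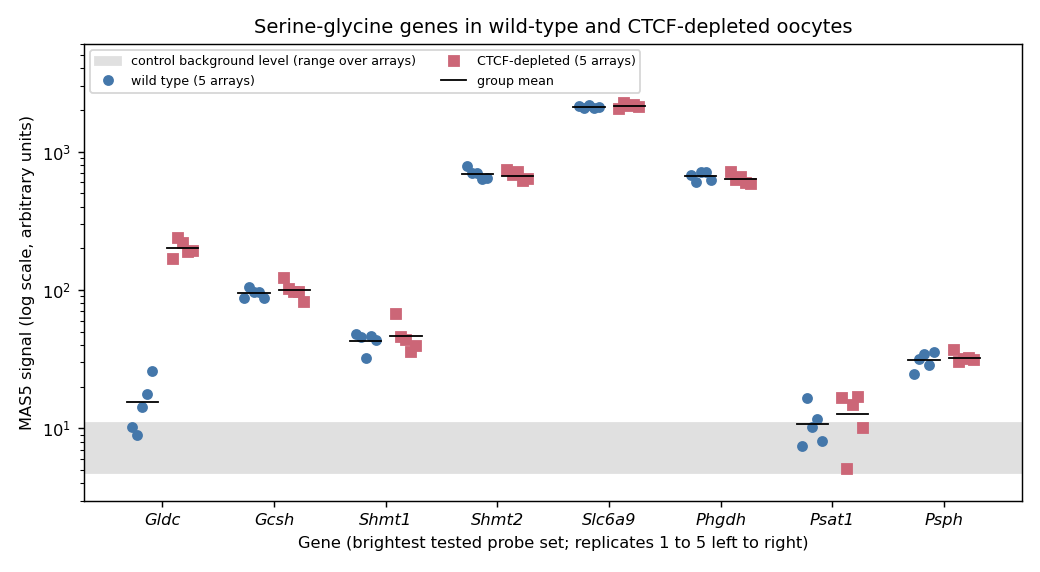
MAS5 signal on a log axis for the brightest tested probe set of each of 8 genes, with circles for the 5 wild-type arrays, squares for the 5 CTCF-depleted arrays, black lines for group means and a grey band for the range of control background levels. Gldc lies at 9.02 to 26.1 in wild type and 168.8 to 235.9 in depleted oocytes, while the groups of the other 7 genes overlap; heights of different genes are not comparable because probe sets differ in response.

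The promoter windows of Gldc and Gcsh are shown because the P protein gene differed so widely between the groups and the gene of its partner did not. Each is the stretch of 250 bases before the annotated start, from RefSeq (GRCm38.p6), read on the minus strand, the strand of both genes: chr19:30175442-30175691 for Gldc and chr8:116993499-116993748 for Gcsh. Capitals mark CCAAT and the GC box GGGCGG, on either strand.
Gldc: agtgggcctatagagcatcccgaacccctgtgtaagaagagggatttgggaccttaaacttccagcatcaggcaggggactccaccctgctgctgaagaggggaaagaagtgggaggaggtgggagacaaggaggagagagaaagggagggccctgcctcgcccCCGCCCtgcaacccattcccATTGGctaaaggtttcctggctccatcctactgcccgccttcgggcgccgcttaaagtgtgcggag
Gcsh: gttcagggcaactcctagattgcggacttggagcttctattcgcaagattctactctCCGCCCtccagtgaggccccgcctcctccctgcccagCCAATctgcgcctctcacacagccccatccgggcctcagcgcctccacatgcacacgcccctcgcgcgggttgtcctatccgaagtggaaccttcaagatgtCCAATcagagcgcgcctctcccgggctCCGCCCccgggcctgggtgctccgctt
Both windows held CCAAT and GGGCGG, which 33.8% and 32.7% of 32851 such windows hold. Gldc had a single match to each, starting 66 and 86 bases before the start. The Gldc window was 59.6% G and C with 8 CpG dinucleotides and the Gcsh window 64.4% with 18, against medians of 52.4% and 6 over all windows. The CTCF core motif, searched on both strands as AGGGGGC, as AGGTGGC, as AGAGGGC and as AGATGGC, was in 23.6% of all windows. Neither printed window held any of the 4, and among the 12 windows of the 9 genes they occurred in those of Amt and Psph, both of Psat1 and 1 of the 3 of Slc6a9. These are matches of letters in a window, and no binding was measured.

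Gcsh, the lipoyl-carrying partner of Gldc, had nearly the same signal in both groups. Its wild-type signals were 87.2, 105, 96.4, 97.3 and 88.1, and its depleted signals 122, 103, 97.5, 96.0 and 81.7. The depleted group held both the highest and the lowest array, so the groups overlapped throughout. The means were 94.9 ± 7.44 and 99.9 ± 14.4 (SD, n = 5 each), and the log2 fold change was 0.06 ± 0.11 (SE), with a 95% interval from -0.16 to 0.29. Within each array the log2 difference between Gldc and Gcsh moved from -2.51 ± 0.59 in wild type to 0.99 ± 0.31 in depleted oocytes (SD, n = 5 each), a shift of 3.50. This shift follows from the choice of Gldc and is no separate result.

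Apart from Gldc, 16 probe sets of 7 genes passed the filter on low signal, and none was called in limma at a Benjamini-Hochberg adjusted p under 0.05. Over all 27022 probe sets tested, 12.6% were called, 5.48% higher and 7.12% lower in depleted oocytes. Of the calls 56.5% were lower on the deposited scaling and 33.3% with each array centred on its median. An unadjusted p under 0.05 was reached by 1 of the 16, the dimmer Slc6a9 probe set. None of the 16 had groups that did not overlap, against 11.1% of all probe sets. Their log2 fold changes ran from -0.54 to 0.18 with a median of 0.03, beside a median of -0.02 over all probe sets. Of the 16, 9 were above 0 and 7 below, and 12 and 4 with arrays centred on their medians.

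**Figure D2:**
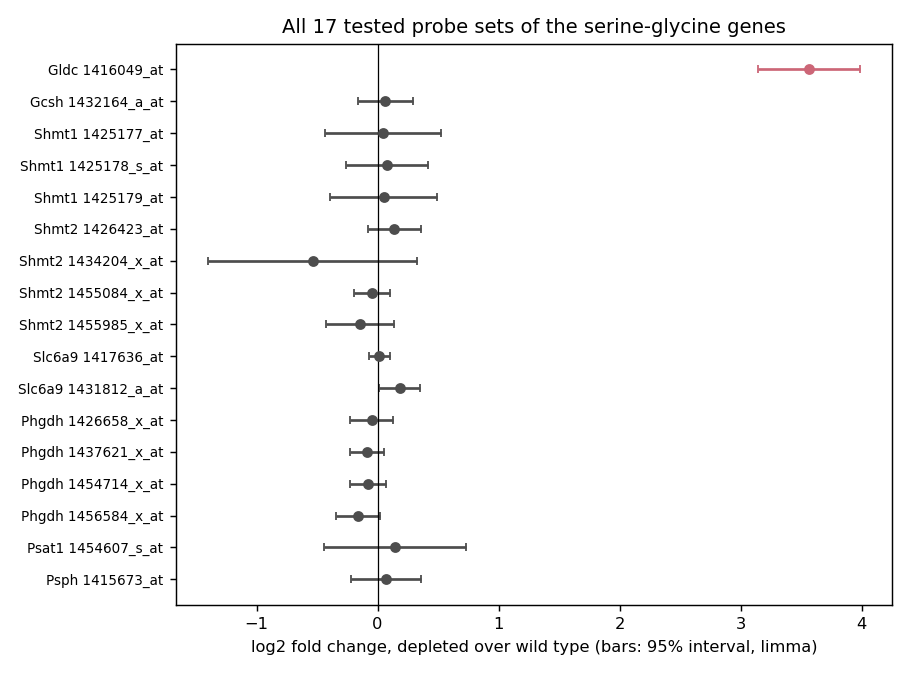
Log2 fold change of depleted over wild-type oocytes for each of the 17 tested probe sets, with 95% intervals from limma. The red point is Gldc, the gene the set was chosen around, and grey points are the other members. The interval of Gldc describes spread between arrays and is no test, because Gldc was chosen by these values. Gldc stands at 3.56 and the other 16 lie between -0.54 and 0.18.

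The serine hydroxymethyltransferases did not separate the groups on any probe set. Shmt2, the mitochondrial enzyme that feeds the same folate pool as glycine cleavage, read 784, 698, 705, 635 and 649 in wild type on 1455084_x_at. In depleted oocytes that probe set read 736, 674, 708, 609.8 and 633. Those values interleave, and the log2 fold change was -0.05 ± 0.07 (SE; 95% interval -0.19 to 0.10). The other Shmt2 probe sets gave 0.14 ± 0.11, -0.15 ± 0.13 and -0.54 ± 0.41. The last of these, 1434204_x_at, was unstable among the depleted arrays, with 4.37 in replicate 1, 10.2 in replicate 3 and 46.6 in replicate 4. Its value rests on the low arrays among them. The _x_at suffix marks probes that can bind other transcripts. The Shmt2 probe set without it, 1426423_at, was dimmer than 1455084_x_at, at 103 ± 15.6 in wild type and 113 ± 7.65 in depleted oocytes (SD, n = 5 each).

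Shmt1, the cytosolic enzyme, had 3 tested probe sets, with log2 fold changes of 0.05 ± 0.23, 0.08 ± 0.16 and 0.05 ± 0.21 (SE). On 1425178_s_at wild type read 47.9, 45.8, 32.1, 46.4 and 43.6, and depleted oocytes 66.8, 46.0, 43.8, 35.7 and 39.6. Depleted replicate 1 was the highest array there and also on 1425177_at, where the depleted arrays ran from 23.2 to 68.9 and the wild-type arrays only from 34.0 to 46.9. The fourth probe set, 1422198_a_at, fell under the filter, with at most 8.37 units in wild type and 1.54 in depleted oocytes.

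Slc6a9, the glycine transporter, was the most precisely measured member, and its main probe set hardly varied. On 1417636_at wild type read 2143, 2062, 2170.1, 2062 and 2095, and depleted oocytes 2022, 2229.7, 2124, 2157 and 2118. The coefficient of variation was 2.31% in wild type and 3.52% in depleted oocytes, and the log2 fold change was 0.02 ± 0.04 (SE; 95% interval -0.07 to 0.10). With median centring it was 0.10, when the median over all probe sets was 0.06. The second probe set, 1431812_a_at, read 265.8 to 305 in wild type and 305 to 399 in depleted oocytes. Its log2 fold change was 0.18 ± 0.08, with a 95% interval from 0.01 to 0.35; it was not called, and its groups overlapped narrowly.

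Phgdh, which commits a glycolytic intermediate to serine synthesis, had 4 tested probe sets, and each gave a slightly negative log2 fold change. On 1454714_x_at wild type read 684, 606, 714, 712 and 627, and depleted oocytes 715, 622, 656, 592 and 581. The highest array of all was a depleted one, and the groups overlapped. The 4 log2 fold changes were -0.05, -0.09, -0.08 and -0.16, with SE from 0.07 to 0.09, and the lowest limit of their 95% intervals was -0.34. Under the alternatives 2 of the 4 changed sign. All 4 carry the _x_at suffix, which marks probes that can bind other transcripts, and 2 further probe sets annotated to Phgdh together with Gm8096 or Gm6756 gave -0.06 and -0.08.

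The later steps of serine synthesis were dim. Psph, the phosphatase that releases serine, read 24.6, 31.6, 34.6, 28.6 and 35.6 in wild type and 37.1, 30.1, 31.8, 32.3 and 31.5 in depleted oocytes. All depleted arrays but replicate 1 lay within the wild-type range, and the log2 fold change was 0.07 ± 0.14 (SE; 95% interval -0.22 to 0.36). Psat1, the aminotransferase, was near background: on 1454607_s_at 3 of 5 wild-type and 4 of 5 depleted arrays exceeded it, at 7.45 to 16.5 and 5.12 to 16.8 units. Its log2 fold change was 0.15 ± 0.28, with a 95% interval from -0.44 to 0.74, the widest interval among the brightest probe sets of the 8 genes. Its other probe set, 1451064_a_at, fell under the filter, above background on 2 wild-type arrays and on none of the depleted.

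The order of the arrays was not the same for Gldc as for many other members. Depleted replicate 1 was the highest depleted array on 7 of the 17 tested probe sets, including Gcsh, Psph and 2 of Shmt1, but the lowest for Gldc; over all tested probe sets it was the highest on 24.8%. Depleted replicate 2 was the highest on 6 of the 17, Gldc itself among them, against 20.8% of all. Depleted replicate 3 was the highest on none, against 22.7%. Depleted replicate 4 was the lowest on 6 of the 17, against 18.4% of all. Wild-type replicate 5, the wild-type array with the most Gldc, was the lowest wild-type array on 6 of the 17, against 23.2% of all, and wild-type replicate 1 was the highest on 6, against 24% of all. These counts are a description of 17 probe sets, several of which share a gene.

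The remaining genes of the pathway were taken from 5 lists, written from general knowledge of the pathway with earlier results of these data known. Of 75 listed genes, 68 had a probe set and 47 passed the filter, each represented by its brightest probe set. In limma with Benjamini-Hochberg adjustment 2 of the 47 rose and 5 fell, 14.9% in all, beside 16.4% of 13811 genes tested (7.26% higher and 9.12% lower). The median log2 fold change was -0.03, and -0.02 over all genes. Median centring turned the balance round, to 3 rises and 1 fall. The count of falls was 3 with no filter or with quantile normalization and 7 without an intensity trend or with array weights, and it was also 3 without wild-type replicate 2, wild-type replicate 3 or depleted replicate 3. The count of rises was 1 without an intensity trend and without wild-type replicate 2, wild-type replicate 4 or depleted replicate 4.

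The 4 genes that complete the complex or attach its lipoyl group were not called, beside 16.4% called of all genes tested. Dld, the L protein, read 639.6, 659.9, 585, 612 and 579 in wild type and 627, 675, 638, 754 and 743 in depleted oocytes. The groups overlapped, and its log2 fold change was 0.16 ± 0.07 (SE; 95% interval 0.02 to 0.30). Lias, which makes the lipoyl group, had 0.49 ± 0.19 and was called with median centring; its highest array, depleted replicate 1, read 94.7 against 29.8 to 51.7 in wild type. The lipoyl transferases Lipt1 and Lipt2 had -0.02 and 0.14.

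Of 17 tested genes of folate one-carbon metabolism, 1 rose and 2 fell, 17.6% in all beside 16.4% of all genes tested. Ahcy, which clears S-adenosylhomocysteine, rose from 498 ± 49.7 to 607 ± 33.6 (SD, n = 5 each; limma with Benjamini-Hochberg adjustment, adjusted p = 0.0123). Ahcy ran from 426 to 546 in wild type and from 564 to 640.1 in depleted oocytes. Its groups did not overlap, as for 11.1% of all probe sets tested. Ahcy was not called without an intensity trend. Slc19a1, the reduced folate carrier, fell by 0.37 ± 0.09 on the log2 scale (SE; limma adjusted p = 0.0101) and by 0.64 on another probe set; it was not called with median centring. Mthfs, which returns folinic acid to the folate pool, had a log2 fold change of -0.79 ± 0.24 (limma adjusted p = 0.0392). It was dim at 13.6 ± 2.32 in wild type and 7.04 ± 2.35 in depleted oocytes, where 3 of 5 arrays were above background. The groups of Mthfs did not overlap, and it was called in only 9 of 19 alternatives that tested it. Mtr, whose groups did not overlap either, had -0.28 ± 0.09. It was not called in the main comparison but was in 5 of 20 alternatives. Mthfd2, the mitochondrial enzyme that oxidises the folate product of glycine cleavage, had -0.01 ± 0.09, with a 95% interval from -0.21 to 0.18.

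Of 13 tested enzymes that make or use glycine or serine by other routes, 1 rose and 3 fell. This was 30.8% in all, beside 16.4% of all genes tested. With median centring 1 rose and 1 fell. Cth, which makes cysteine from serine-derived cystathionine, fell from 314 ± 39.4 to 229.6 ± 30.1 (SD, n = 5 each). Its limma adjusted p was 0.0057, and it was not called with median centring. The groups of Cth did not overlap, as for 11.1% of all probe sets tested. Cbs, whose groups did not overlap either, had -0.603 ± 0.195 (SE). It was not called in the main comparison but was in 4 of 19 alternatives. Gss, which joins glycine to the dipeptide precursor of glutathione, fell from 57.7 ± 7.52 to 40.5 ± 4.22 (limma adjusted p = 0.0151), and it was called in all 20 alternatives. Its other probe set gave -0.35 and was not called. Srr, the racemase that makes D-serine, had -0.46 ± 0.14 (limma adjusted p = 0.0328), but its other 4 tested probe sets gave -0.28 to 0.19, and it was called in 10 of 20 alternatives. Dao, which degrades D-amino acids including D-serine, rose from 148 ± 10.4 to 189 ± 22.9 (limma adjusted p = 0.021), and was not called without wild-type replicate 2, wild-type replicate 4 or depleted replicate 4.

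None of 12 tested glycine and serine transporters other than Slc6a9 was called, beside 16.4% of all genes tested. Glrb, the tested glycine receptor gene, was not called either. The transporters' log2 fold changes ran from -1.17 to 0.35 with a median of -0.14. The lower end was set by dim genes. Slc38a5 read 10.5, 74.5, 13.0, 16.6 and 13.3 in wild type and 3.56 to 10.7 in depleted oocytes. Its log2 fold change of -1.17 was -0.71 without wild-type replicate 2 and -0.65 with an offset of 16. That replicate also had the highest summed signal of granulosa markers. Slc7a10 read 10.8 ± 0.63 in wild type and 5.52 ± 3.74 in depleted oocytes, where 2 of 5 arrays were above background. The groups of Slc7a10 did not overlap, as for 11.1% of all probe sets tested. Slc38a5 was called with array weights and with the replicate block, Slc7a10 without depleted replicate 1, and Slc6a20b when a gene's probe sets were averaged. Slc6a20a and Slc6a20b, of the same family as Slc6a9, had 0.16 ± 0.09 and 0.19 ± 0.07.

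**Figure D3:**
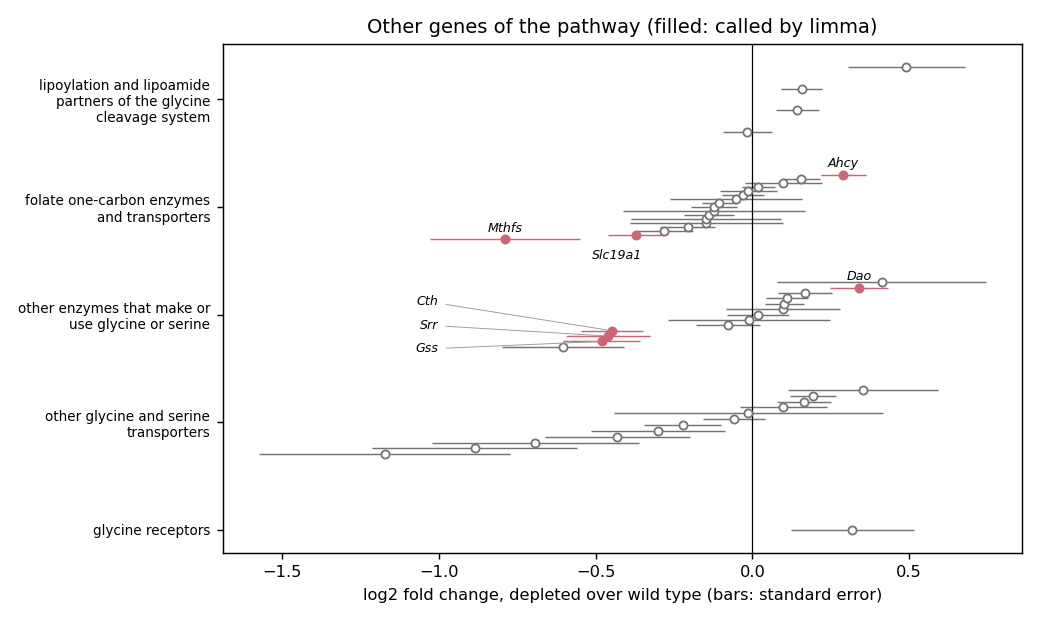
Log2 fold change of depleted over wild-type oocytes with its standard error for the 47 tested genes of 5 pathway lists; filled and named points were called by limma and open points were not. All lie between -1.17 and 0.49, and the 7 called genes belong to the folate list and to the list of other glycine and serine enzymes.

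The genes that flank Gldc on chromosome 19 were read from RefSeq gene order, 5 protein-coding genes on each side. Of these 10, 9 had a tested probe set, and 1 was called by its brightest probe set, beside 16.4% of all genes tested. Uhrf2, its nearest neighbour on one side and a regulator of DNA methylation, read 17.6, 18.3, 15.9, 17.6 and 23.8 in wild type and 43.6, 19.1, 29.3, 18.6 and 25 in depleted oocytes. The groups overlapped, and its log2 fold change of 0.44 ± 0.21 (SE) was not called. Mbl2, the nearest on the other side, which encodes a mannose-binding lectin, read 3915 to 4894 in wild type and 3663 to 4326 in depleted oocytes, with a log2 fold change of -0.05 ± 0.06.

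Prkg1, a cyclic GMP-dependent kinase gene, was the neighbour that was called: it rose by 0.32 ± 0.10 on the log2 scale (limma with Benjamini-Hochberg adjustment, adjusted p = 0.0367), with 0.08 on its other probe set. The rest were Cstf2t, Dkk1, A1cf, Il33, Ranbp6 and 9930021J03Rik, with log2 fold changes from -0.08 to 0.29, none of them called; Trpd52l3 fell under the filter.

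**Figure D4:**
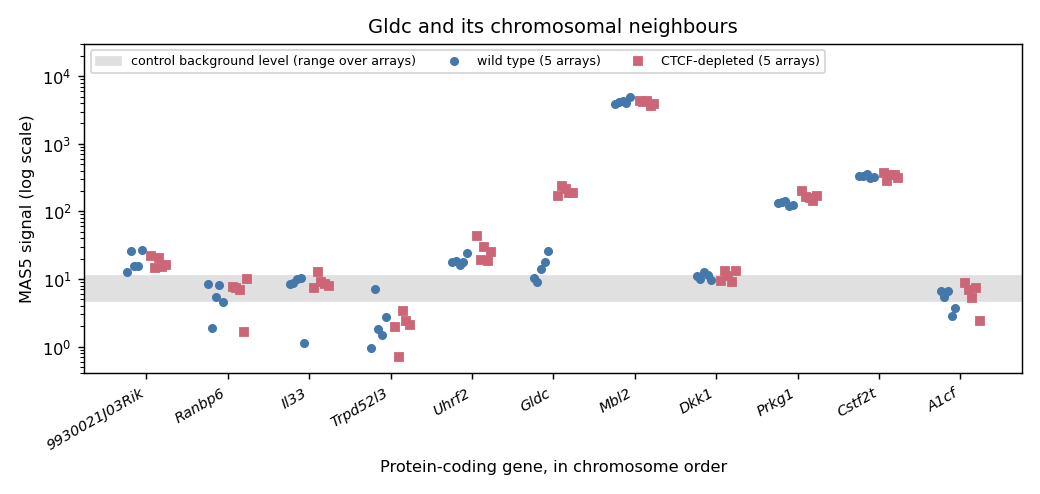
MAS5 signal on a log axis for Gldc and the 5 protein-coding genes on each side of it, in chromosome order and not to distance, with circles for wild-type arrays, squares for depleted arrays and a grey band for the control background levels. Gldc is the only gene in the row whose groups do not overlap; Mbl2 beside it stays between 3663 and 4894.

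The genes whose profile over the 10 arrays was most like that of Gldc were found by the root-mean-square difference of log2 values, each gene centred on its own mean. They were Hmgn3, a nucleosome-binding protein gene, at 0.51, Slc6a12, a betaine transporter gene, at 0.52, and Sall3, Dtd1 and Sp5 at 0.61 to 0.65. The measure is dominated by the step between the groups, so it picks genes with a rise of similar size. Hmgn3 read 85.7 to 140.5 in wild type and 824 to 1408 in depleted oocytes. Slc6a12 was above background on no wild-type array and read 20.3 to 38.3 in depleted oocytes.

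Some markers of the cells that surround oocytes were above background in both groups. Each was read on its brightest probe set, and 8 of the 12 measured granulosa and cumulus markers were above background on all 10 arrays. By array, 49.4% to 62.9% of all probe sets were above background. The summed signal of the 12 granulosa and cumulus markers was 732 to 1378 in wild type and 793 to 1004 in depleted oocytes. That of the 13 oocyte markers was 62743 to 73788. The highest sum was that of wild-type replicate 2. It read 536 for Inha against 121 to 188 on the other wild-type arrays, and 135 for Inhba against 31.2 to 62.8. For Hsd17b1 it read 93.8 against 27.1 to 43.7. Amhr2 and Foxl2 were also highest of the 10 arrays there, but Fshr, Amh, Kitl, Wt1, Nr5a2, Has2 and Ptx3 were not. Fshr was lowest of the 10 there, at 13.4 against 20.3 to 31.0 on the other wild-type arrays. Of 11 tested granulosa markers 2 rose, beside 7.26% of all genes: Fshr from 23.2 to 47.8 (limma adjusted p = 0.00107) and Nr5a2 from 349.8 to 433 (limma adjusted p = 0.00637). For both the groups did not overlap, as for 11.1% of all probe sets tested. Fshr and Nr5a2 were also called without wild-type replicate 2, and Nr5a2 was not called when a gene's probe sets were averaged. Other markers had lower means in depleted oocytes and were not called: Kitl at 84.0 and 61.5, with groups that did not overlap, Inha at 230 and 147, and Has2 at 10.8 and 4.27. Has2 was called lower with array weights, when probe sets were averaged and without wild-type replicate 2 or depleted replicate 2, and Kitl with the filter at the 60th percentile, with the replicate block and without depleted replicate 1. Wt1 was above background on no array, Foxl2 had mean signals of 31.1 and 28.5, and Amh was above background on 7 of 10 arrays. The summed signal of 9 theca and stroma markers was 187 to 214 in wild type and 183 to 214 in depleted oocytes, and that of 10 blood, immune and endothelial markers 120.4 to 172 and 125 to 160.5, with Col1a1 and Ptprc above background on no array. The part of these cells in the Gldc signal was not tested.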

How the data were processed

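Picopure-purified RNA was labelled with biotin, per the labels' protocols. Each deposited value is a linear signal intensity of a probe set; the submitters' processing notes name MAS5, and its version and settings are not given in the sources used here. The trimmed mean of signals (2% off each end) was 150.001 on every array, so arrays had been scaled alike, which assumes equal mean signal in both groups.

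Groups came from the sample titles. The 64 control probe sets were left out. An offset of 2.47 (the 25th percentile of the whole table) was added before taking log2, and probe sets under the 40th percentile of mean log2 value (about 5.13 units) were left out, leaving 27022. The comparison used limma 3.58.1 in R 4.3.3 (eBayes with an intensity trend; calls at a Benjamini-Hochberg adjusted p under 0.05 across the 27022), and the fit was tested on simulated data. Fold changes on this scale understate changes of dim genes. No array pair shared more than 0.00222% of values.

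The members, lists and the use of Bacillus controls as background were chosen with earlier results of these data known. Named genes were all member and Ctcf probe sets, up to 5 called genes per pathway list, and Dld, Mthfd2 and Srr. Also named were 5 neighbours on each side of Gldc, the 5 nearest profiles and up to 3 markers per list. Lias, Lipt1, Lipt2, Mtr, Cbs, the transporters, Glrb and further markers were named after their values were seen. Alternatives covered the offset, filter, scaling, variance model, array weights, replicate block, leaving out each array and averaging a gene's probe sets.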

Additional observations from a re-analysis of the deposited data

Results flagged for a closer look

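Of 38 groups of 5 signals checked (19 probe sets in both groups), 2 held an array whose gap to its nearest neighbour exceeded 0.71 of the group's range, where chance gives about 5%. Wild-type replicate 3 read 32.05 for Shmt1 on 1425178_s_at, against 43.6 for the next array. Wild-type replicate 5 read 265.8 for Slc6a9 on 1431812_a_at, against 297.2 for the next.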

How the results depend on the processing

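The log2 fold change of Gldc stayed between 2.80 and 3.75 over 19 alternatives; only the offset of 16, at 2.80, moved it by more than the replicate spread. Leaving out single arrays gave 3.42 to 3.75 for Gldc, 2743 to 3314 probe sets called in all, 1 to 2 pathway genes higher and 3 to 6 lower. The main count of calls was 3406. No other member was called in any of the 19. Of 302 values of the other member probe sets under these alternatives, 301 moved by less than the replicate spread, the exception being Slc6a9 on 1417636_at with median centring (0.10); 9 of the 16 changed sign in at least 1 setting.

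Pathway genes called lower numbered 3 with no filter, 1 with median centring and 3 with quantile normalization, and those called higher numbered 1 without an intensity trend, against 5 and 2 in the main comparison. With the replicate block 3581 probe sets were called and Gldc had 3.56. Same-numbered arrays did not deviate together (correlations of 0.00 to 0.05), and 2 of 5 wild-type arrays correlated best with their own number, so the numbers were not taken as pairs. Depth does not apply to arrays; dim probe sets, Gldc in wild type and Psat1 among them, lie near background, which limits the size of any ratio.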
